A study of Mus musculus with 12 samples.

Results

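Long intergenic noncoding RNAs (lincRNAs) are long, usually polyadenylated transcripts that lie between protein-coding genes and carry no long reading frame. The set described here held the 188 genes that the count table annotates as lincRNA and that had a mean of at least 20 raw fragment counts over the 12 libraries. They were taken from 5559 lincRNA genes and 54532 genes listed in all. The members were thus chosen by their level over all libraries together, and that level is given below as a description only. The lincRNAs nearest the minimum were Gm21817, BC051077 and CT025659.1 below it, with means of 19.3, 19.8 and 19.9 counts, and Gm10814, AI839979 and Gm43303 inside it, with means of 20, 20.1 and 20.6 counts.

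The libraries came from mouse keratinocytes that all carried a wild-type fusion of desmoplakin residues 1 to 584 with the biotin ligase BirA, DP(1-584)-BirA. Desmoplakin links keratin filaments to desmosomes, the cell junctions of the epidermal cell cortex. Confluent cultures received calcium, for which the labels give 1.2 micromolar, and 2 microgram per mL doxycycline, which induced differentiation and the fusion, and were then wounded or left unwounded and given biotin for 16 h. The translating fraction of a sucrose gradient was passed over neutravidin resin: the bound RNA is the cortical fraction, and the depleted remainder is what the labels call total. The 4 groups (total and cortical, each from unwounded and from wounded cells) had 3 libraries each, titled as biological replicates, and every group carried the same fusion, calcium, doxycycline and biotin. In these fractionated bulk samples, fewer cells holding a transcript and less of it per cell cannot be told apart.

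Several of these RNAs have well-described roles. Norad is a cytoplasmic RNA that binds Pumilio proteins, repressors that bind an 8-base element and shorten the life of their target mRNAs. Oip5os1, also called Cyrano, holds a nearly complete site for the microRNA miR-7 and directs its decay. Neat1 is the architectural RNA of nuclear paraspeckles and Malat1 is a nuclear-speckle RNA, and both are known mainly as nuclear transcripts. snoRNA host genes carry small nucleolar RNAs in their introns, and their spliced transcripts often meet ribosomes and are degraded by nonsense-mediated decay. Some genes annotated as lincRNAs have since proved to encode small proteins. Counts in a translating fraction do not show that a transcript is translated.

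The sequences on which the best-described members' interactions rest are shown first, read from the GENCODE release M21 transcripts of the GRCm38 (mm10) build and, for the microRNAs, from RefSeq. 2900097C17Rik, which RefSeq names Norad, is a single exon of 4915 bases on the minus strand at chr2:156388065-156392979. Its transcript held 11 matches to the Pumilio-type element TGTANATA on the sense strand, where N is any base, and 0 on the reverse complement. The 2 stretches below, of 125 bases at chr2:156391340-156391464 and of 246 bases at chr2:156390510-156390755, hold 2 and 3 of these matches, in capitals.
2900097C17Rik stretch 1: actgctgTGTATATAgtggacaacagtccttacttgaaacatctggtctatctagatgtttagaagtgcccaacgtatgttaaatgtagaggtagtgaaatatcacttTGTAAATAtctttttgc
2900097C17Rik stretch 2: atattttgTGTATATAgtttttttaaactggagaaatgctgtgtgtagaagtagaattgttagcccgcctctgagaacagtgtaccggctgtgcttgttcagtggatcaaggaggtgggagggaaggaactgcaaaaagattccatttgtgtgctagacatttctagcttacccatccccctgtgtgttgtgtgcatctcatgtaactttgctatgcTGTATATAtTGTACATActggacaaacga
The next highest count in any member was 4, in Gm46404 and in Neat1. The element occurred at least once in 43 of the 188 members (22.9%) and in 31.8% of the transcripts of 10478 protein-coding genes averaging 20 or more counts. At least 11 matches occurred in 1 member and in 4 of those protein-coding transcripts. The limit of 11 was the count of 2900097C17Rik itself, so these counts are a description and not a test. Cut into tiles of 246 bases, members held at least 1 match in 3.06% of tiles and protein-coding transcripts in 2.52%. Tiles with 3 or more were 3 of 1664 in members (0.180%) and 26 of 160255 in protein-coding transcripts (0.0162%). The tile length was that of stretch 2, which was chosen with its 3 matches, so these last shares do not test clustering. 1700020I14Rik, which RefSeq names Oip5os1, lies on the plus strand at chr2:119594297-119607502, and its 26-base miR-7 site is at chr2:119602136-119602161. A gapped alignment paired 22 of the 23 bases of miR-7a-5p with this site. Capitals mark the seed, bases 2 to 8 of the microRNA, and its match. The transcript held 2 matches to the seed, and the site shown was chosen for its number of paired bases.
1700020I14Rik miR-7 site: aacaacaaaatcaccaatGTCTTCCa
mmu-miR-7a-5p: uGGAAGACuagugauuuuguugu
mmu-miR-7b-5p: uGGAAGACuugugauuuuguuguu
The 2 microRNAs share the seed and differ elsewhere. The microRNAs themselves were not measured in these libraries.

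Library depth ran from 8980013 to 23457548 counts. The first wounded total library stood apart: it had a count in 13117 genes against 14393 to 16867 in the other 11 libraries, and 20 of the 188 members were at 0 in it, against 0 to 4 in each of the others. Among genes with a mean of 20 to 50 counts, 19.6% of lincRNAs and 17.4% of protein-coding genes were at 0 there. Its name recurs below where a call, a count of called members, a median or a share is also given without it. Summed keratinocyte markers reached 10912 to 21109 CPM (counts scaled by library size and its TMM factor) per library, while summed immune cell markers stayed at or below 0.285 CPM, endothelial markers at or below 1.87 CPM, fibroblast markers at or below 6.47 CPM and melanocyte markers at or below 10.4 CPM. All 188 members passed the filter on low counts and were tested among 13571 genes. A gene is called where the adjusted p of edgeR's quasi-likelihood test, with Benjamini-Hochberg adjustment over all tested genes, is under 0.05; every adjusted p below is of this kind unless another tool is named, and every log2 fold change is of levels in CPM, with its standard error.

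2900097C17Rik (Norad) was the member with the lowest adjusted p between fractions in both treatments, and it was higher in cortical. Its levels were 302, 269 and 278 CPM in the unwounded total libraries and 1098, 1126 and 1108 CPM in the unwounded cortical libraries. In wounded cells they were 249, 219 and 214 CPM in total and 587, 638 and 622 CPM in cortical. The total and cortical libraries did not overlap in either treatment, and all 3 wounded cortical libraries lay below all 3 unwounded ones. The cortical-to-total log2 fold change was 1.97 ± 0.10 in unwounded cells (adjusted p = 2.54e-09) and 1.44 ± 0.10 in wounded cells (adjusted p = 4.81e-07). Its unwounded value ranked 93 from the top of the 13571 genes tested. In the cortical fraction the level fell by 0.85 ± 0.10 on the log2 scale after wounding (adjusted p = 0.000228). In the total fraction the change was −0.32 ± 0.10 (adjusted p = 0.0405), and this call was lost in 10 of the 12 fits that each left out 1 library, with adjusted p of 0.0561 to 0.174; it was kept without unwounded total replicate 2 and without wounded total replicate 1. It was also lost in 6 of the other 10 settings. Per length, its deposited FPKM averaged 225 in the unwounded cortical libraries and 56.5 in the total ones. Of the 50-base words in this transcript, 39.5% also occur in Gm7292, to which reads could be split. Gm7292 had a mean of 7.08 counts over the libraries, and how reads shared between genes were counted is not given in the sources used here.

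1700020I14Rik (Oip5os1, Cyrano) had the same order of groups at a lower level. It measured 42.1, 43.2 and 46.7 CPM in unwounded total, 79.2, 84.6 and 70.6 CPM in unwounded cortical, 24.3, 29.9 and 37.4 CPM in wounded total and 48.4, 47.6 and 42.8 CPM in wounded cortical libraries. In both treatments every cortical library lay above every total one, and every wounded library lay below every unwounded library of its fraction. The cortical-to-total log2 fold change was 0.83 ± 0.14 in unwounded cells (adjusted p = 0.00102) and 0.60 ± 0.14 in wounded cells (adjusted p = 0.0086). The wounded value was not called with the gene length trend removed (adjusted p = 0.116, and 0.12 with the replicate number also in the model) or in a fit of only the groups compared (adjusted p = 0.0529). After wounding the level fell by 0.53 ± 0.14 in the total fraction (adjusted p = 0.0172) and by 0.76 ± 0.14 in the cortical fraction (adjusted p = 0.00743) on the log2 scale. The total call was lost without unwounded total replicate 3 (adjusted p = 0.0616) or wounded total replicate 2 (0.0534) and in 2 of the other 10 settings (0.0507 and 0.0788), and the cortical call without unwounded cortical replicate 2 (0.0507) or wounded cortical replicate 3 (0.0542). Its convergent neighbour Oip5, which encodes a centromere protein, lies 2010 bases away on the other strand. The cortical-to-total log2 fold changes of Oip5 were 0.46 and 0.09. The library protocol in the labels kept no strand, so reads from overlapping genes on opposite strands could not be told apart for any member.

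2900097C17Rik and 1700020I14Rik were the only members of the list of cytoplasmic or ribosome-associated RNAs that are annotated as lincRNAs and reached the minimum. The other 4 tested genes of that list were not called in the unwounded cortical comparison. Tug1, known for roles in the nucleus and cytoplasm and annotated as antisense, was called in wounded cells at 0.43 ± 0.12 (adjusted p = 0.0268) and fell by 0.75 ± 0.12 in the total fraction after wounding (adjusted p = 0.00072). Gas5, a snoRNA host, Dancr and Crnde had cortical-to-total values between −0.25 and 0.18 in the 2 treatments.

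**Figure D1:**
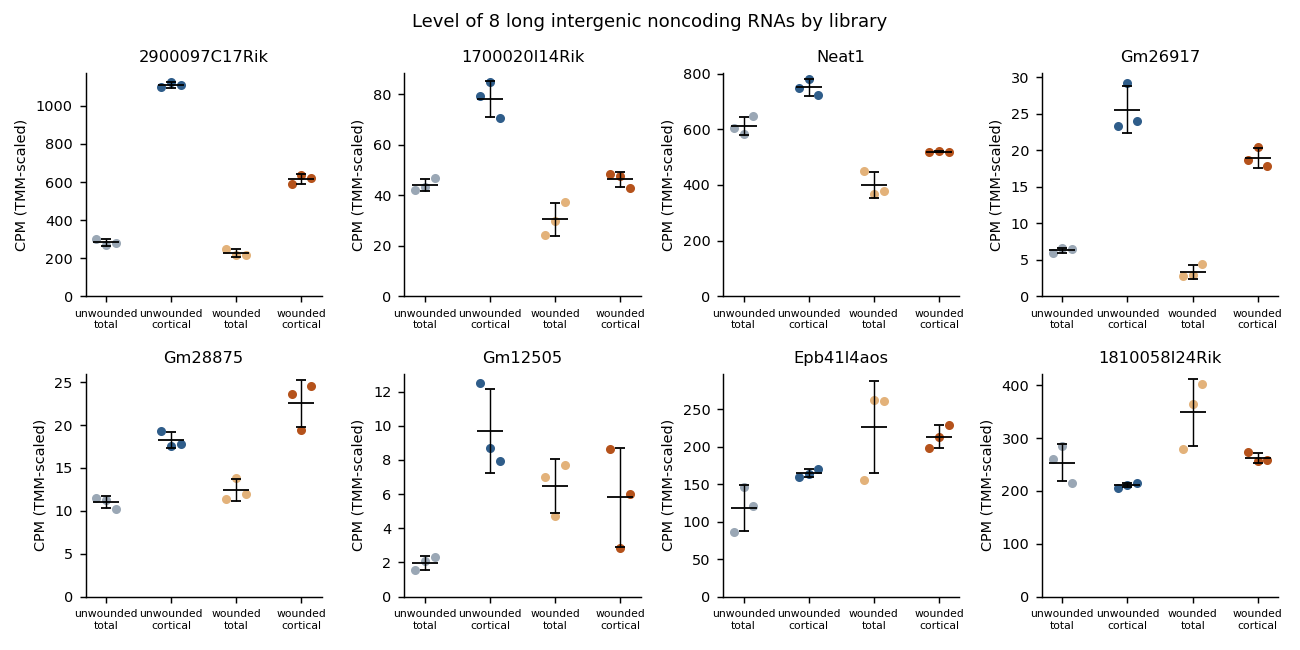
Level of 8 lincRNAs in each of the 12 libraries, in TMM-scaled CPM from 0; points are libraries, horizontal bars the mean and vertical bars the SD of 3 libraries. The 3 unwounded cortical libraries of 2900097C17Rik sit between 1098 and 1126 CPM, above its total libraries at 214 to 302 CPM.

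Neat1, the paraspeckle RNA, was the most counted member, with a mean of 10207 counts over 20771 bases. It measured 603, 582 and 646 CPM in unwounded total, 748, 780 and 722 CPM in unwounded cortical, 451, 369 and 379 CPM in wounded total and 517, 520 and 519 CPM in wounded cortical libraries. All wounded libraries lay below all unwounded libraries of the same fraction. Wounding lowered it by 0.61 ± 0.10 in the total fraction (adjusted p = 0.000859), a call kept in each of the 22 alternatives run. In the cortical fraction it fell by 0.53 ± 0.10 (adjusted p = 0.0112), a call lost without any 1 of the 3 wounded cortical libraries or unwounded cortical replicates 1 or 2 (adjusted p of 0.0527 to 0.0682). Its cortical-to-total log2 fold change was 0.30 ± 0.10 in unwounded cells (adjusted p = 0.0652) and 0.38 ± 0.10 in wounded cells (adjusted p = 0.0211). Without any 1 of the wounded cortical libraries, or wounded total replicates 2 or 3, the wounded call was lost (adjusted p of 0.0654 to 0.111), and with the gene length trend removed its sign turned, to −0.01 (adjusted p = 0.97). The unwounded value passed the test in 8 of 22 alternatives, among them DESeq2 (adjusted p = 0.0071), and was −0.03 with the length trend removed (adjusted p = 0.912).

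The other nuclear RNAs among the members did not pass the test in any comparison. Malat1 measured 18.3 to 21.8 CPM in unwounded total, 23 to 25.8 CPM in unwounded cortical, 18.1 to 20.7 CPM in wounded total and 20.9 to 30.9 CPM in wounded cortical libraries. Its wounded cortical-to-total value was 0.43 ± 0.16 (adjusted p = 0.0769), and its mean FPKM of 3.16 was well below the 27.2 of Neat1 on the same per-length scale. Pvt1, the lincRNA downstream of Myc, had cortical-to-total values of −0.33 ± 0.14 (adjusted p = 0.124) and −0.02 ± 0.14 (adjusted p = 0.951). Jpx, an activator of Xist, stayed between 1.01 and 5.24 CPM. Of 15 listed nuclear or chromatin-bound RNAs, 10 were tested. In the unwounded cortical comparison 0 were called, against 14.2% of all tested genes, and in the wounded one 1 was (Neat1), against 15.7%. Neat1 and Firre, 2 of the 10, were lower in the total fraction after wounding, against 7.20% of all tested genes. Of the 15 listed paraspeckle proteins, mRNAs of 3 were lower in the total fraction after wounding (Hnrnpk, Matr3 and Tardbp) and 0 higher, against 7.20% and 8.39% of all tested genes, with a list median of −0.18.

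The 6 snoRNA host genes among the members differed among themselves. Epb41l4aos, the host of a small nucleolar RNA, had a mean FPKM of 417, the highest per-length level of all members. It measured 86.1, 147 and 121 CPM in unwounded total and 156, 262 and 262 CPM in wounded total libraries, against 160 to 170 CPM in unwounded and 198 to 229 CPM in wounded cortical libraries. The wounded total libraries lay above the unwounded ones, and the rise of 0.94 ± 0.19 passed the test (adjusted p = 0.00269) and remained called in each of the 22 alternatives. In the cortical fraction the difference was 0.38 ± 0.19 (adjusted p = 0.309). Snhg6, Snhg12 and Snhg20 had total wound differences of −0.03, −0.14 and 0.21, and Snhg18 and Snhg10 of 0.86 ± 0.33 (adjusted p = 0.095) and −0.54 ± 0.85 (adjusted p = 0.741); none of the 5 was called in any comparison.

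Across all 17 tested snoRNA hosts, whatever their annotation, 4 rose and 4 fell in the total fraction after wounding, where 8.39% of all tested genes rose and 7.20% fell. Epb41l4aos, Gas5 (0.64 ± 0.17), Zfas1 (0.65 ± 0.17) and Snhg8 (0.68 ± 0.18) rose. Snhg4 (−1.20 ± 0.23), Snhg14 (−1.29 ± 0.42), Snhg15 (−0.66 ± 0.15) and Snhg17 (−0.63 ± 0.15) fell. The list's median was −0.03, as was that of all tested genes. In the cortical comparison 0 hosts were called in unwounded cells, against 14.2% of all tested genes, and 1, Snhg14, in wounded cells, against 15.7%. Of 18 listed nonsense-mediated decay factors, 2 were higher and 4 lower in the cortical fraction of unwounded cells, against 6.62% and 7.59% of all tested genes. In wounded cells 3 were higher and 3 lower, against 7.62% and 8.03%. Upf1, the central helicase of that pathway, was the only 1 of the 18 called after wounding in the total fraction (0.58 ± 0.16, adjusted p = 0.0187), where 15.6% of all tested genes were called.

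Some members are not noncoding by RefSeq. Of 132 members whose symbol matched RefSeq, 121 are lncRNAs there, 9 protein-coding and 2 pseudogenes. The most counted of the 9, 1810058I24Rik, encodes a small mitochondrial protein. It measured 261, 284 and 215 CPM in unwounded total, 206, 211 and 215 CPM in unwounded cortical, 279, 365 and 403 CPM in wounded total and 274, 256 and 258 CPM in wounded cortical libraries. In wounded cells it was lower in the cortical than in the total fraction, at −0.41 ± 0.13 (adjusted p = 0.0427), with 279 CPM in its lowest total library and 274 CPM in its highest cortical one. That call was lost in 9 of the 12 fits that left out 1 library, those without unwounded cortical replicate 1, 2 or 3, unwounded total replicate 1, wounded cortical replicate 1, 2 or 3, or wounded total replicate 2 or 3 (adjusted p of 0.0521 to 0.161). In the total fraction it rose by 0.46 ± 0.13 after wounding (adjusted p = 0.024), a call lost without unwounded total replicate 1 or 3 or wounded total replicate 2 or 3 (adjusted p of 0.0595 to 0.119) and in a fit of only the groups compared (0.111). Tmem250-ps, which RefSeq also lists as protein-coding, stayed between 67.2 and 89.8 CPM in all 12 libraries and was not called. Gm10076, a pseudogene in RefSeq, shares 69.9% of its 50-base words with other genes, most with the ribosomal protein gene Rpl41, and varied from 36.2 to 198 CPM among libraries without order by group.

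Gm26917 had the largest called cortical excess in wounded cells. It measured 5.92, 6.60 and 6.42 CPM in unwounded total, 23.3, 29.2 and 24 CPM in unwounded cortical, 2.79, 2.86 and 4.48 CPM in wounded total and 18.6, 20.4 and 17.8 CPM in wounded cortical libraries. The fractions were far apart in both treatments: the log2 fold change was 2.01 ± 0.20 in unwounded cells (adjusted p = 1.2e-05) and 2.49 ± 0.21 in wounded cells (adjusted p = 3.21e-06). After wounding it fell by 0.90 ± 0.21 in the total fraction (adjusted p = 0.00875, and 0.09 in a fit of only the groups compared). This gene, at chr17:39843013-39846341 on the plus strand, ends 12 bases from CT010467.1, a ribosomal RNA gene on the opposite strand. CT010467.1 itself had 660 to 866 CPM in unwounded total, 1376 to 1549 CPM in unwounded cortical, 453 to 1322 CPM in wounded total and 1067 to 1167 CPM in wounded cortical libraries. Its cortical-to-total values were 0.94 ± 0.24 (adjusted p = 0.0157) and 0.29 ± 0.24 (adjusted p = 0.473). The part of ribosomal RNA in the Gm26917 counts was not tested.

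Gm28875, 3244 bases from Syne3 and on its strand, was the fourth member called in both treatments. It measured 10.3 to 11.5 CPM in unwounded total and 17.6 to 19.3 CPM in unwounded cortical libraries, and 11.4 to 13.8 against 19.4 to 24.5 CPM in wounded cells, with no overlap. The log2 fold changes were 0.73 ± 0.16 (adjusted p = 0.00687) and 0.86 ± 0.16 (adjusted p = 0.00233). Syne3, which encodes a nesprin of the nuclear envelope, had values of 0.04 and 0.48, neither called.

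In unwounded cells 7 of the 188 members were called between the cortical and total fractions (3.72%), against 14.2% of all tested genes. The calls were 6 higher in cortical, where 6.62% of all genes were, and 1 lower, where 7.59% were. Beside 2900097C17Rik, 1700020I14Rik, Gm26917 and Gm28875, Gm12505 and 9330102E08Rik were higher and Gm32219 was lower. Gm12505 measured 1.54, 2.09 and 2.30 CPM in total and 12.5, 8.70 and 7.93 CPM in cortical libraries, a log2 fold change of 2.31 ± 0.39 (adjusted p = 0.00102). 9330102E08Rik measured 16.5 to 18.9 CPM in total and 22.3 to 26.6 CPM in cortical libraries, at 0.51 ± 0.15 (adjusted p = 0.0322); the call was lost without unwounded cortical replicate 1 or 3 or any 1 of the unwounded total libraries (adjusted p of 0.0678 to 0.123). It was also lost in 3 of the other 10 settings, among them the gene length trend removed and no filter on low counts (0.0506 to 0.0661). Gm32219 was at 2.06, 3.16 and 3.12 CPM in total and 1.25, 0.251 and 0.203 CPM in cortical libraries, at −2.13 ± 0.61 (adjusted p = 0.0262); without unwounded cortical replicate 2 or 3 or unwounded total replicate 2 or 3 it was not called (adjusted p of 0.068 to 0.0964), nor was it in 1 of the other 10 settings (0.0692). Without the first wounded total library, which is in neither group compared, 14 members were called (8 higher, 6 lower), against 22.4% of genes. Of the 3151 genes called in that fit, 1415 were higher. A fit of only the 2 groups compared called 10 members higher and 4 lower. It called 3014 genes in all, 1392 of them higher, against 1928 and 898 in the main fit.

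In wounded cells 16 members were called (8.51%), against 15.7% of all tested genes. Higher in cortical were 5, where 7.62% of all genes were: 2900097C17Rik, Gm26917, Gm28875, 1700020I14Rik and Neat1. Lower in cortical were 11, where 8.03% of all genes were. Gm20442 measured 10.5, 9.83 and 11 CPM in wounded total and 2.44, 4.34 and 2.35 CPM in wounded cortical libraries, at −1.79 ± 0.36 (adjusted p = 0.00374). 4631405K08Rik, which RefSeq names Mir205hg, the host gene of an epithelial microRNA, measured 9.32, 13.2 and 13.1 CPM in total and 6.19, 4.40 and 5.49 CPM in cortical libraries, at −1.14 ± 0.27 (adjusted p = 0.00866). Both gaps exceeded the spread of the libraries, and both genes were called in each of the 22 alternatives. A730063M14Rik, 111 bases from Tspan31, was lower at −1.17 ± 0.28 (adjusted p = 0.0103) and was also called in each of the 22.

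Each of the other 8 lower calls in wounded cells was lost without at least 1 single library, and 6 of them also in other settings. 2700033N17Rik, 379 bases from Meis2, stood at −1.27 ± 0.29 (adjusted p = 0.00751) and was lost without wounded total replicate 3 (0.0501). 1110019D14Rik, at −1.67 ± 0.44 (adjusted p = 0.0182), was lost without that library (0.0731) or wounded cortical replicate 1 (0.0717), and in 2 of the other 10 settings. A330069E16Rik, 164 bases from the DNA repair gene Ddb2, stood at −1.34 ± 0.33 (adjusted p = 0.0125) and was lost without wounded cortical replicate 1 (0.0602) or 2 (0.0583). Gm24474, at −1.12 ± 0.29 (adjusted p = 0.0159), was lost without wounded cortical replicate 1 or wounded total replicate 2 or 3 (0.0552 to 0.0823), and in 3 of the other 10 settings (0.0523 to 0.145). Lockd, a lincRNA 3579 bases downstream of the cell-cycle inhibitor gene Cdkn1b, stood at −0.75 ± 0.22 (adjusted p = 0.0282) and was lost without any 1 of the wounded cortical libraries or wounded total replicate 2 or 3 (0.0565 to 0.117), and in 4 of the other 10 settings (0.0623 to 0.0853). Gm12976, at −1.49 ± 0.45 (adjusted p = 0.0334), was lost without wounded cortical replicate 2 or 3 or wounded total replicate 2 or 3 (0.0697 to 0.139), and in 4 of the other 10 settings (0.0546 to 0.111). Gm38563, at −0.49 ± 0.15 (adjusted p = 0.037), was lost without any 1 of the unwounded total or wounded cortical libraries or wounded total replicate 2 or 3 (0.0512 to 0.164). It was also lost in 6 of the other 10 settings, among them library size alone and the gene length trend removed, with values down to −0.14 (adjusted p of 0.0508 to 0.625). The eighth, 1810058I24Rik, is described above and was lost in 7 of the other 10 settings (0.0586 to 0.24). Without the first wounded total library all 16 were still called and 11 more were added, giving 27 members (6 higher, 21 lower), against 24.7% of genes. Of the 3475 genes called in that fit, 1697 were higher.

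**Figure D2:**
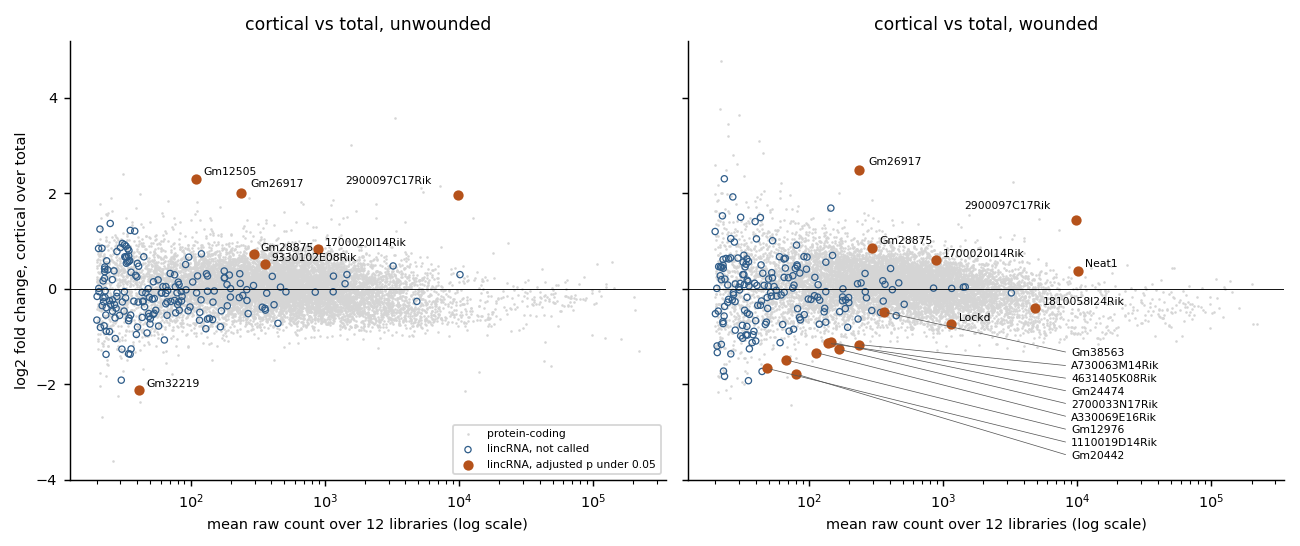
Cortical-over-total log2 fold change against mean raw count (log scale) for the 188 lincRNAs and the protein-coding genes that met the same minimum, in unwounded (left) and wounded (right) cells; filled points are lincRNAs with an adjusted p under 0.05. In unwounded cells 6 of 7 filled points lie above 0, and in wounded cells 11 of 16 lie below it.

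The lower share of calls among lincRNAs than among all genes went with their lower counts, and it was set against protein-coding genes of like count. The members had a median of 52.2 counts, a median exonic length of 2006.5 bases and a median FPKM of 1.74, and 131 of the 188 had means under 100 counts. The 10486 protein-coding genes that met the same minimum had medians of 431 counts, 4478 bases and 4.79 FPKM. Weighted to the members' bins of mean count, 4.55% of protein-coding genes were called in unwounded cells against 3.72% of members, and 6.12% in wounded cells against 8.51%. Among genes with a mean of 100 to 250 counts, 6 of 32 members (18.8%) were called in wounded cells against 8.14% of protein-coding genes, and 5 of the 6 were lower in cortical whereas 130 of the 164 protein-coding calls were higher. That bin was singled out after its values were seen. In the same comparison 1 of 92 members (1.09%) was called at 20 to 50 counts against 1.42% of protein-coding genes, 2 of 39 (5.13%) at 50 to 100 against 3.38%, 3 of 17 (17.6%) at 250 to 1000 against 20.1%, and 4 of 8 at 1000 or more against 35.6%. With the first wounded total library left out, the weighted shares of protein-coding genes were 8.52% in unwounded and 11% in wounded cells, against 7.45% and 14.4% of members. These shares carry no test.

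The members' median cortical-to-total log2 fold change was −0.09 in unwounded and −0.06 in wounded cells. All tested genes had medians of 0.00 and 0.04, and protein-coding genes weighted to the same bins 0.07 and 0.11. In unwounded cells 40.4% of members and 52.5% of protein-coding genes had a positive value, and in wounded cells 47.3% and 56.4%. With library size alone as the scaling, the median of all genes moved to 0.19 and 0.25 and that of the members to 0.10 and 0.18, so that the members stayed below all genes by 0.09 and 0.07. When the first wounded total library was left out, the wounded median was −0.23 for members and 0.06 for all genes, and 39.4% of members and 58.4% of protein-coding genes had a positive wounded value. Longer protein-coding genes had higher cortical-to-total values, with Spearman correlations of 0.405 and 0.422 across genes, and the members had 0.119 and 0.194 over 188 genes; without that library the wounded correlation was 0.457 for protein-coding genes and 0.268 for members. Genes within a library are not independent replicates. The 94 members above the median length had median values of −0.06 and 0.05, and the 94 at or below it −0.20 and −0.18. With the gene length trend removed, the medians of members and of all genes were 0.00 and −0.02 in unwounded and 0.04 and 0.01 in wounded cells. Members with a TGTANATA match had medians of 0.03 and 0.12 (43 members of median length 3486 bases), and members without had −0.16 and −0.13 (145 of 1538 bases), so the element and length moved together.

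**Figure D3:**
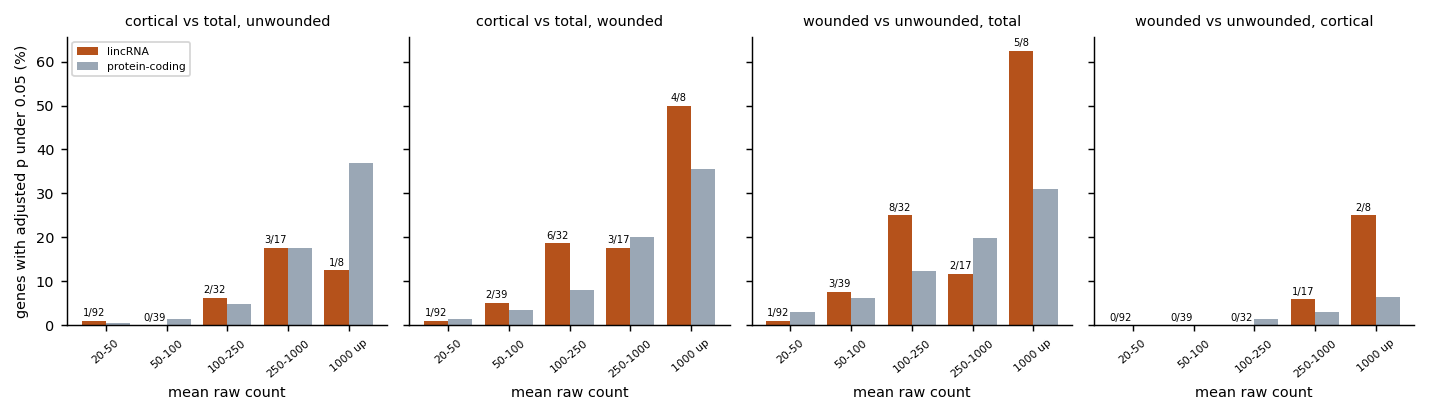
Percent of lincRNAs and of protein-coding genes with an adjusted p under 0.05 in bins of mean raw count, for the 4 comparisons; fractions above the lincRNA bars give members called of members tested. Both sets rise with count, and the lincRNA bars at 1000 counts and above rest on 8 genes.

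The cortical-to-total values of the 2 treatments come from separate libraries. They were related more loosely among members than among mRNAs, which had higher counts (medians of 52.2 and 431). Across the 188 members Pearson's r was 0.158, and across the 10486 protein-coding genes 0.506. Among genes averaging 100 or more counts it was 0.478 over 57 members and 0.672 over 8856 protein-coding genes. Of these, 32 of the 57 members and 2014 of the 8856 protein-coding genes averaged 100 to 250 counts. The sign was shared by 53.7% of the 188 members and 72.2% of the 10486 protein-coding genes. Leaving out the first wounded total library, r was 0.245 across members and 0.517 across protein-coding genes, and 58.0% and 72.1% shared the sign. These are descriptions across genes that share libraries and depth. The part of count in the difference between the 2 sets was not tested. The 4 of 188 members called in the same direction in both treatments were 2900097C17Rik, Gm26917, Gm28875 and 1700020I14Rik. Of the 10486 protein-coding genes, 988 were called in this way. Among genes averaging 100 or more counts it was 4 of 57 members and 986 of 8856 protein-coding genes.

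**Figure D4:**
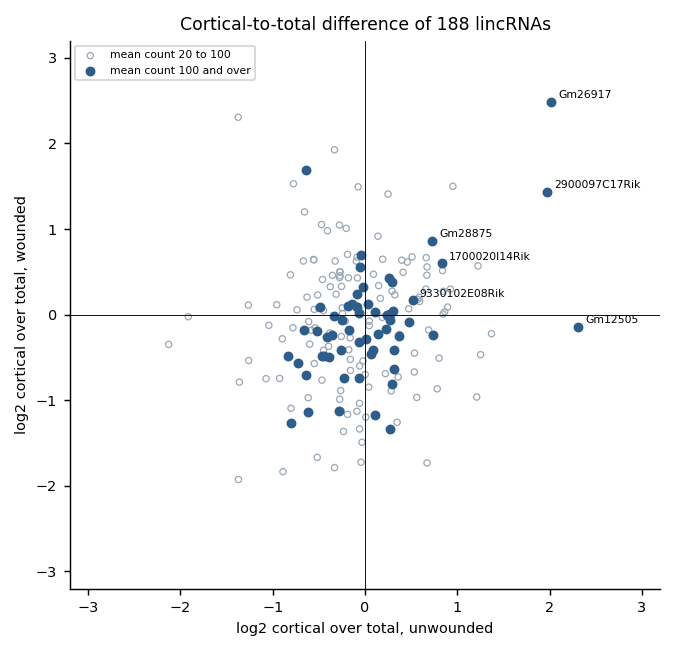
Cortical-over-total log2 fold change of each lincRNA in unwounded (horizontal) and wounded (vertical) cells, with filled points for genes averaging 100 or more counts. Gm26917, 2900097C17Rik, Gm28875 and 1700020I14Rik lie in the upper right, and Gm12505 is at 2.31 in unwounded and −0.15 in wounded cells.

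In the total fraction, 19 members were called after wounding (10.1%), against 15.6% of all tested genes and 8.0% of protein-coding genes weighted to the members' bins. Higher were 12, where 8.39% of all genes were, and lower were 7, where 7.20% were. These libraries include the wounded total ones used above, so the same 3 libraries enter both comparisons of a gene. Gm20442 rose from 1.62, 3.50 and 2.83 CPM to 10.5, 9.83 and 11 CPM, at 1.98 ± 0.37 (adjusted p = 0.00157). 2700033N17Rik rose from 5.84, 7.56 and 5.24 CPM to 15.7, 15.7 and 26.1 CPM, at 1.62 ± 0.29 (adjusted p = 0.00133), and stood at 1.15 ± 0.30 in the cortical fraction (adjusted p = 0.0556). Gm12505 rose from its 1.54 to 2.30 CPM to 7, 4.72 and 7.72 CPM, at 1.72 ± 0.38 (adjusted p = 0.0062). No library of these 3 genes overlapped between the groups. A730063M14Rik (1.35 ± 0.28, adjusted p = 0.00396) and Lppos, which overlaps the gene of the focal-adhesion protein Lpp on the opposite strand (0.87 ± 0.19, adjusted p = 0.00546), were also called in each of the 22 alternatives.

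Each of the remaining 5 higher calls, beside Epb41l4aos and 1810058I24Rik, was lost without at least 1 single library. A330069E16Rik, at 1.32 ± 0.33 (adjusted p = 0.0128), was lost without unwounded total replicate 1 (0.0678) or 3 (0.0586). 2310001H17Rik, at 1.14 ± 0.31 (adjusted p = 0.02), was lost without unwounded total replicate 3 or wounded total replicate 2 or 3 (0.056 to 0.0953). D730003I15Rik, 6415 bases from the stress-response gene Atf3, stood at 0.93 ± 0.24 (adjusted p = 0.016) and was lost without unwounded total replicate 1 or 3 or wounded total replicate 3 (0.0762 to 0.0779). Lockd, at 0.92 ± 0.22 (adjusted p = 0.00942), was lost without unwounded total replicate 1 (0.0526) and in a fit of only the groups compared (0.0656). Gm39228, 2962 bases from the metallothionein gene Mt1, stood at 1.90 ± 0.59 (adjusted p = 0.0378) and was lost without any 1 of the unwounded total libraries or wounded total replicate 2 or 3 (0.0716 to 0.154), and in 2 of the other 10 settings (0.0588 and 0.0591).

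Lower in the total fraction, beside 2900097C17Rik, 1700020I14Rik, Neat1 and Gm26917, were 3 members of 1.13 to 11.3 CPM. 2700038G22Rik, at −1.37 ± 0.42 (adjusted p = 0.036), was lost without any 1 of the unwounded total libraries or wounded total replicate 1 or 3 (0.0528 to 0.104), and in 1 of the other 10 settings (0.0739). Gm26532, at −1.32 ± 0.41 (adjusted p = 0.0365), was lost without unwounded total replicate 2 or 3 or any 1 of the wounded total libraries (0.0533 to 0.127), and in 3 of the other 10 settings (0.0583 to 0.072). 4632415L05Rik, a transcribed pseudogene in RefSeq, stood at −0.84 ± 0.25 (adjusted p = 0.0308) and was lost without unwounded total replicate 2 or 3 or wounded total replicate 1 or 3 (0.0589 to 0.125), and in 1 of the other 10 settings (0.0775). Without the first wounded total library 23 members were called (18 higher, 5 lower), 16 of them among the 19. The shares called in that fit were 24.9% of genes and 13.7% of protein-coding genes weighted to the members' bins. Of the 3502 genes called, 1887 were higher.

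In the cortical fraction 3 members were called after wounding (1.60%), against 2.48% of all tested genes and 0.849% of protein-coding genes weighted to the members' bins. All 3 were lower, where 0.884% of all genes were: 2900097C17Rik, 1700020I14Rik and Neat1, whose values are given above. Higher were 0, against 1.60% of all genes. Without the first wounded total library, which is in neither group compared, 9 members were called (5 higher, 4 lower), against 9.07% of genes. Of the 1276 genes called in that fit, 770 were higher. The median wound response of the members was −0.02 in the total and −0.02 in the cortical fraction, beside −0.03 and 0.02 over all tested genes. The total median of the members changed sign without the first wounded total library, to 0.08, and that of all genes was −0.04. The 149 members not named by the rule had total wound values from −2.73 to 1.73 and cortical wound values from −2.66 to 1.44, with none called.

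**Figure D5:**
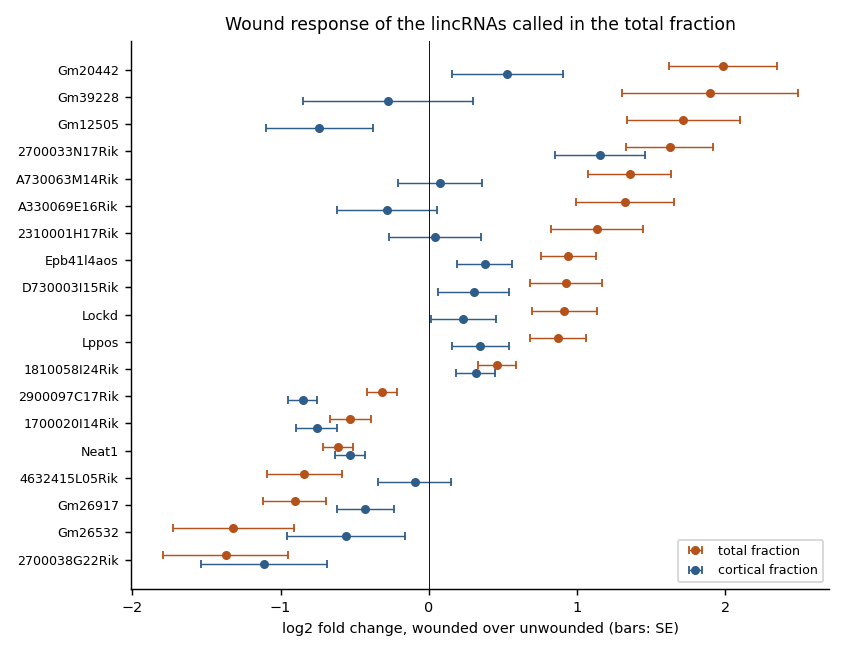
Wounded-over-unwounded log2 fold change of the 19 lincRNAs called in the total fraction, with the value of the same gene in the cortical fraction; bars are standard errors of the fit. Gm20442 is at 1.98 in total and 0.53 in cortical, while 2900097C17Rik is at −0.32 in total and −0.85 in cortical.

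Whether the cortical excess itself differed between wounded and unwounded cells was tested by the interaction of fraction and wounding. By edgeR 0 members were called, against 0.125% of all tested genes, and 19 members (10.1%) had an unadjusted p under 0.05, against 9.05% of genes. Gm12505 had the lowest adjusted p of the members, at −2.46 ± 0.52 (adjusted p = 0.135): its levels in wounded cells were 4.72 to 7.72 CPM in total and 2.83 to 8.64 CPM in cortical libraries, which overlapped. 2900097C17Rik stood at −0.54 ± 0.14 (adjusted p = 0.275). DESeq2 called these 2 genes, among 72 genes in all, and the fit with no filter on low counts called 4 members, among 138. Without the first wounded total library 6 members (3.19%) were called, against 2.93% of genes. All 6 were negative, and over all genes 149 of the 413 calls in that fit were positive. The 6 were 2900097C17Rik at −0.47 (adjusted p = 0.0289), Gm12505 at −2.40 (0.0114), Epb41l4aos at −0.77 (0.0202), Lockd at −0.92 (0.0226), A730063M14Rik at −1.51 (0.0181) and A330069E16Rik at −1.69 (0.0463).

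The members stood close to other genes as often as not: 96 had another counted gene within 5 kb, 67 of these with the nearest on the opposite strand, and 25 overlapped one. Their values followed the nearest gene little, with Spearman correlations across the 188 members of 0.0424 and −0.0174 for the cortical-to-total and 0.0452 and 0.00657 for the wound comparisons, in the order given above. Of the 92 members with no counted gene within 5 kb, 4 were called in unwounded cells, 5 in wounded cells, 8 in the total and 1 in the cortical wound comparison. Of the other 96 members these counts were 3, 11, 11 and 2, and of all tested genes 14.2%, 15.7%, 15.6% and 2.48% were called.

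As a share of all counts, the 188 lincRNAs made up 0.244% ± 0.0030 of unwounded total, 0.389% ± 0.0068 of unwounded cortical, 0.230% ± 0.0071 of wounded total and 0.299% ± 0.0057 of wounded cortical libraries (SD, n = 3 each). The groups of each of the 4 comparisons did not overlap, and the exact two-sided permutation test gave p = 0.1 for each, the smallest that 3 against 3 libraries can give (0.1 after Benjamini-Hochberg adjustment over the 4). Within wounded total, the first library was at 0.238% and the other two at 0.224% and 0.227%, a mean of 0.226%. Neat1 and 2900097C17Rik held 39.0% of all member counts. Without 2900097C17Rik the shares were 0.217% in unwounded total and 0.267% in unwounded cortical, and 0.209% and 0.234% in wounded cells. Without Neat1, the share in the total fraction was 0.193% in wounded and 0.186% in unwounded cells, and those groups overlapped.

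The scatter of replicates was set against that of protein-coding genes of like count. In genes with a mean of 100 to 250 counts the median SD of log2 CPM within groups was 0.403 for members and 0.326 for protein-coding genes, 0.355 and 0.286 with the wounded total group left out. In those with a mean of 20 to 50 counts it was 0.769 and 0.749, and 0.635 for members against 0.659 without the wounded total group, so the order turned in this bin. In that lowest bin, which holds 92 of the 188 members, the median standard error of the cortical-to-total log2 fold change was 0.685 in unwounded cells and 1 member was called.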

How the data were processed

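RNA from the translating fraction of keratinocyte cultures was sequenced in 12 libraries, with 4 groups of 3 libraries taken from the sample titles. The authors deposited raw counts of fragments per gene and FPKM values, per the file headers; both tables were read by gene identifier. Per the labels, RNA was selected with poly-T beads and libraries were non-directional. The submitters' processing notes name CASAVA, HISAT2 and mm10; the counting tool and annotation release are not given in the sources used here. All 188 members' identifiers were in GENCODE release M21, and 182 had the same coordinates there. Every deposited FPKM equalled the count divided by gene length and by a size constant within its library. The number of per-sample columns not used was 0.

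Tests on the counts used edgeR 4.0.16 in R 4.3.3 (filterByExpr, TMM factors, quasi-likelihood test, 1 mean per group over all 12 libraries, 5 contrasts, Benjamini-Hochberg over 13571 genes, threshold 0.05). Alternatives used DESeq2 1.42.0, limma 3.58.1 on log2(FPKM + 0.1) or log2(FPKM + 1), other scalings, no filter, only the groups compared, a gene length trend removed (loess, span 0.5), the replicate number as a block, each library left out, and other member rules. Shared sequence was measured as 50-base words that also occur in another gene's transcripts. The statistics were tested on simulated data. Figures used python 3.11.15 and matplotlib 3.10.9.

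Members, gene lists and tests were chosen with earlier results of these data known. Named members were those called, the 10 with the highest mean FPKM, and members of lists of nuclear, snoRNA-host, microRNA-host, cytoplasmic and imprinted RNAs. By the symbols of the count table the microRNA-host and imprinted lists held 0 members. The member 4631405K08Rik, which RefSeq names Mir205hg, was missed by this match. Same-numbered libraries did not deviate together over all tested genes (mean correlation 0.000785 over 18 pairs, 0 over 0.1), and the main fit took no numbers as pairs. Bound and depleted RNA of the same culture would be paired. This check cannot exclude such pairs, because it weighs all tested genes alike, those of low count included. The fit with the replicate number as a block is among the alternatives.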

Additional observations from a re-analysis of the deposited data

How the results depend on the processing

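Of 45 calls of members, 21 held in all 12 fits that left out 1 library and 19 of those also in the other 10 settings; 24 were lost in at least 1 leave-one-out fit. Counts of called members ran from 5 to 14 (unwounded cortical to total), 8 to 27 (wounded cortical to total), 9 to 23 (wound, total), 1 to 9 (wound, cortical) and 0 to 6 (interaction) when 1 library was left out. Over all genes, in the same order, these fits called 949 to 3151, 1084 to 3475, 1128 to 3502, 108 to 1276 and 4 to 413. The main fit called 1928, 2124, 2116, 337 and 17 genes in all. Fits of only the groups compared called 14, 8, 11 and 8 members in the first 4 comparisons, and 3014, 970, 1175 and 1423 genes in all. In the main fit, members with no counted gene within 5 kb gave 4, 5, 8 and 1. DESeq2 called 7 members in the cortical wound comparison and 2 for the interaction, and no filter on low counts gave 5 and 4. Over all genes DESeq2 called 736 and 72 in these 2 comparisons, and no filter 559 and 138, against 337 and 17 in the main fit. With the replicate block the counts were 8, 14, 16, 3 and 0 members, and 1857, 1985, 2038, 276 and 10 genes in all. With library size alone the median of members was 0.098 in unwounded and 0.179 in wounded cells. The wounded calls of members then split into 9 higher and 7 lower, against 5 and 11 in the main fit. Over all genes, 2203 of 2723 wounded calls were higher with library size alone, against 1034 of 2124 in the main fit. The wounded cortical-to-total value of Neat1 reversed to -0.00886 with the gene length trend removed and to -0.00892 with the block added. Differences in the share of counts, in percentage points, became 0.121, 0.0516, 0.0074 and -0.0621 without Neat1, and -0.0272 for the total wound comparison with the mitochondrial chromosome left out of the denominator. The cause of these shifts was not tested. Members of 20 to 50 counts had a median standard error of 0.685 on the log2 scale in the unwounded cortical comparison. The replicate block ended the wounded cortical calls of Gm38563 and 1810058I24Rik and the total wound calls of Gm39228, Gm26532 and 2900097C17Rik.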
